A study of Mus musculus with 12 samples.

Results

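Isoleucine in the mouse cytosol is carried by tRNAs of 2 isoacceptors, named in the deposited annotation mature-tRNA-Ile-AAT and mature-tRNA-Ile-TAT, and the fragments of these tRNAs are described here. They were chosen by the name of the isoacceptor, 2 of the 51 with a read in the series, because the internal fragment of tRNA-Ile-AAT was known to be higher in sperm of mice on the high-fat diet. Each isoacceptor was split into 4 classes, which gave 8 of the 201 tRNA-derived small RNA fragments (tRFs) with at least 1 read. A 5′ end fragment starts at the first base of the tRNA, a 3′ end fragment stops at its last encoded base, and a CCA end fragment carries the added CCA tail. All remaining reads are called internal fragments.

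The libraries are small RNA libraries of mouse sperm and of TM4, a mouse Sertoli cell line. Sperm came from the epididymis of C57BL6/J males that ate a control diet (CD) with 16% of its energy as fat, or a high-fat diet (HFD) with 69%, for 7 weeks from 4 weeks of age, with sperm of 3 mice pooled in each of the 3 libraries per diet. The fat contents are those of the labels, and the study's methods give a lower one for the HFD. TM4 cells were non-treated (Ctrl), given 10 µM Compound C (CC), an inhibitor of the energy sensor AMPK, for 12 hours, or made to overexpress angiogenin from a plasmid (Ang OE), with 2 libraries per group. Angiogenin is a secreted ribonuclease that cuts tRNAs. TM4 is 1 cell line, and nothing in the labels says that its replicates are separate cultures, so its p-values measure only the spread between these libraries.

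A tRNA reads a codon with its anticodon. In tRNA-Ile-AAT the adenosine at the first anticodon base is changed to inosine, which lets this tRNA read several isoleucine codons. tRNA-Ile-TAT reads the rare ATA codon, and its genes carry an intron that is cut out before the tRNA matures. Fragments of mature tRNAs form a large part of the small RNA of mammalian sperm, where most of them come from the 5′ side of a few tRNAs.

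A search of GRCm39 for tRNA-Ile cloverleaves, with a chromosome left out, gave 15 genes, 11 with the anticodon AAT and 4 with TAT. None of the 11 tRNA-Ile-AAT genes held an intron, whereas all 4 tRNA-Ile-TAT genes did, of 19 to 22 bases, after base 38 counted from the 5′ end. The commonest mature sequence of tRNA-Ile-TAT belonged to 3 of its 4 genes, as at chr13:22081108-22081201 on the minus strand, inside an exon of the miRNA gene Mir1983 on the same strand and of the lncRNA gene Gm40830 on the opposite one. It is 74 bases long without the CCA tail and is given with the anticodon in capitals.
tRNA-Ile-TAT: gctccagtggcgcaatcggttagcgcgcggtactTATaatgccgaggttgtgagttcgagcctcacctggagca
The gene is shown with its intron in capitals, since a fragment of the mature tRNA that crosses this point has no unbroken counterpart in the gene.
tRNA-Ile-TAT gene: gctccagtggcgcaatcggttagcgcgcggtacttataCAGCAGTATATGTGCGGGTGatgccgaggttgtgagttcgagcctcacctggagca
The 30 bases centred on that point in the spliced tRNA are given with the bases 3′ of it in capitals.
tRNA-Ile-TAT centre: cgcgcggtacttataATGCCGAGGTTGTGA
This stretch was found 0 times in GRCm39 without mismatch.

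The libraries held 31710445 to 64038150 clean reads, of which 3754 to 24000 came from tRNA-Ile. Ribosomal RNA took 16.5 to 25.2% of the reads in CD, 24.7 to 32.9% in HFD and 5.92 to 8.58% in TM4 cells. Levels are therefore given as RPM, the reads per 1000000 clean reads without rRNA. The library HFD replicate 1 stood apart from the other HFD libraries in its tRNA-Ile fragments, as given below. It had the highest rRNA share, 32.9%, but HFD replicate 2 was close to it at 30.5%. All 8 miRNAs of a germ cell list had reads in each sperm library, with sums of 1806 to 4956 RPM. In the TM4 libraries 4 to 6 of the 8 had reads, with sums of 550.4 to 609 RPM in Ctrl and CC and 1195 to 1335 RPM in Ang OE. The TM4 libraries held 0.719 to 1.55 RPM of an epithelial list that reached 4480 to 7580 RPM in sperm.

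The level of tRNA-Ile was lowest in Ang OE and highest in HFD sperm and CC cells. Summed over all classes, tRNA-Ile gave 75.8 and 89.3 RPM in the 2 Ang OE libraries, 242 and 286 RPM in Ctrl, and 340 and 504 RPM in CC. In sperm it gave 282, 342 and 186 RPM in CD and 361, 383 and 550 RPM in HFD. The group means were 82.5 ± 9.53 (SD, n = 2), 264 ± 31.1 (n = 2), 422 ± 116 (n = 2), 270 ± 79.0 (n = 3) and 431 ± 103 (n = 3) RPM in that order. Ang OE lay below every other library. In the order of the means, Ctrl and CD overlapped, as did CD and CC and also CC and HFD. In bulk libraries, fewer cells of a type and less RNA per cell cannot be told apart.

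tRNA-Ile was a small part of the tRNA reads, and its share differed more between sperm and the Ctrl or CC cells than its RPM did. It made up 0.112 to 0.318% of the mature tRNA reads in CD and 0.267 to 0.424% in HFD. It reached 0.876 and 1.26% in Ctrl and 1.25 and 1.89% in CC, but 0.206 and 0.180% in Ang OE, within the range of CD although the RPM of Ang OE lay below every CD library. Among 23 tRNA families ordered from the most to the fewest reads it ranked 18 in both sperm groups, 14 in Ctrl and CC, and 19 in Ang OE. tRNA-Ile-AAT supplied most of the family in every library, from 56.3 to 80.2% of its reads in sperm and from 65.2 to 81.6% in TM4.

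**Figure D1:**
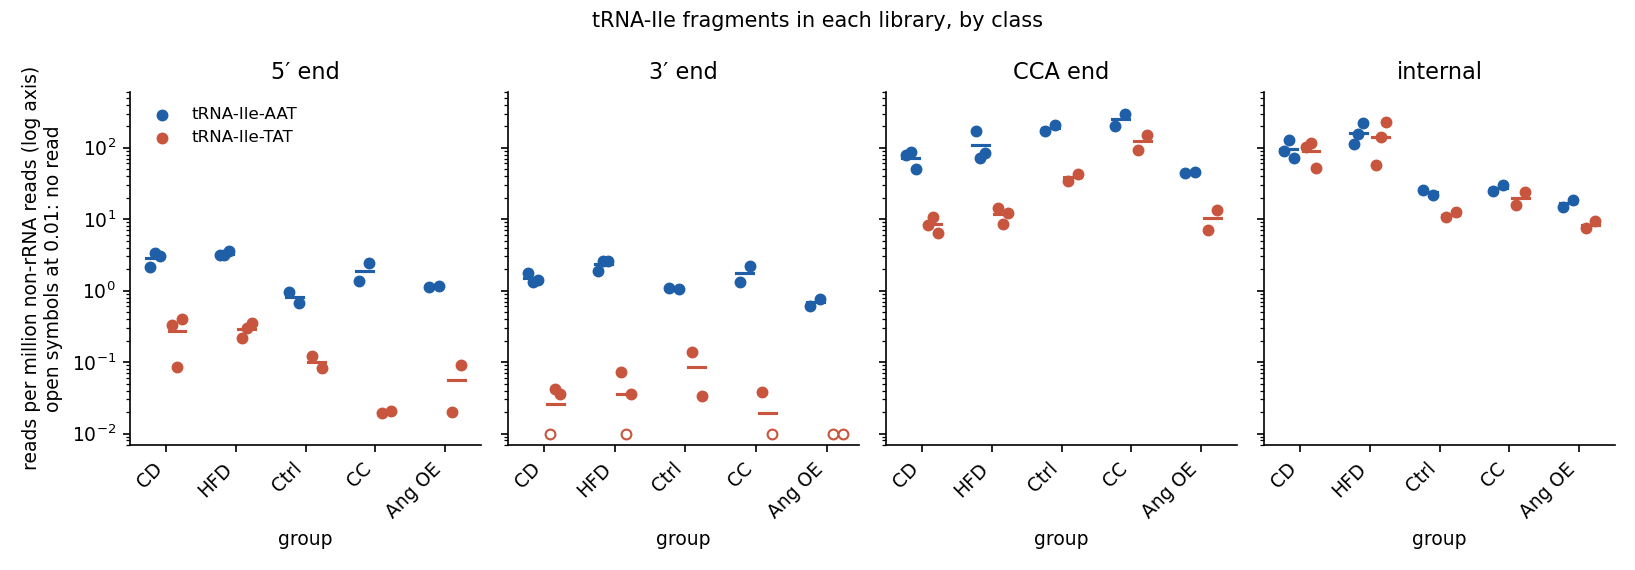
Level of the 8 tRNA-Ile fragments in the 12 libraries, in RPM on a log axis, with 1 panel per class; points are libraries, bars are group means, and open symbols mark libraries with no read. Internal fragments were higher in sperm than in TM4 cells, CCA end fragments were higher in Ctrl and CC than in CD sperm, and the 5′ and 3′ end fragments of tRNA-Ile-TAT stayed under 0.4 RPM.

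The classes of tRNA-Ile differed from those of the other tRNAs. In CD sperm 5′ end fragments made up 75.7% ± 5.09 (SD, n = 3) of the reads of all other tRNAs but 1.24% ± 0.533 of those of tRNA-Ile. In Ctrl cells the shares were 33.2% ± 9.24 (n = 2) and 0.355% ± 0.129, and in Ang OE they were 63.0% ± 0.077 and 1.47% ± 0.0711. The highest value in any library was 1.85% for tRNA-Ile, and the lowest was 7.28% for the other tRNAs, so the ranges did not overlap. This low share was not particular to tRNA-Ile, since tRNA-Ile-AAT ranked 15 and tRNA-Ile-TAT 6 of 48 isoacceptors in CD, counted from the lowest 5′ end share.

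CCA end fragments were prominent instead. They made up 29.7% ± 1.28 of the tRNA-Ile reads in CD against 1.15% ± 0.450 of the reads of all other tRNAs, and 85.7% ± 2.35 against 29.2% ± 8.47 in Ctrl. The CCA end share of tRNA-Ile-AAT in CD, 41.6% ± 3.52, ranked 47 of 48 isoacceptors from the lowest. That of tRNA-Ile-TAT was 8.90% ± 1.73 and ranked 31 of 48. In Ctrl the CCA end share was 87.8% for tRNA-Ile-AAT, rank 45 of 48, and 76.6% for tRNA-Ile-TAT, rank 34 of 48. A high CCA end share in Ctrl was thus not particular to tRNA-Ile-TAT. In sperm the reads of tRNA-Ile-TAT were mostly internal, at 90.7% ± 2.00 in CD, against 55.7% ± 3.25 for tRNA-Ile-AAT. In all 12 libraries the internal share was higher for tRNA-Ile-TAT than for tRNA-Ile-AAT.

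HFD replicate 1 departed from this pattern. CCA end fragments took 51.8% of its tRNA-Ile reads, against 20.9 and 17.7% in the other HFD libraries and 28.2 to 30.6% in CD. The 95% Wilson interval of that share was 50.8 to 52.8% and covers counting error only. tRNA-Ile-AAT supplied 80.2% of its tRNA-Ile reads, against 60.8 and 56.3% in the other HFD libraries.

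**Figure D2:**
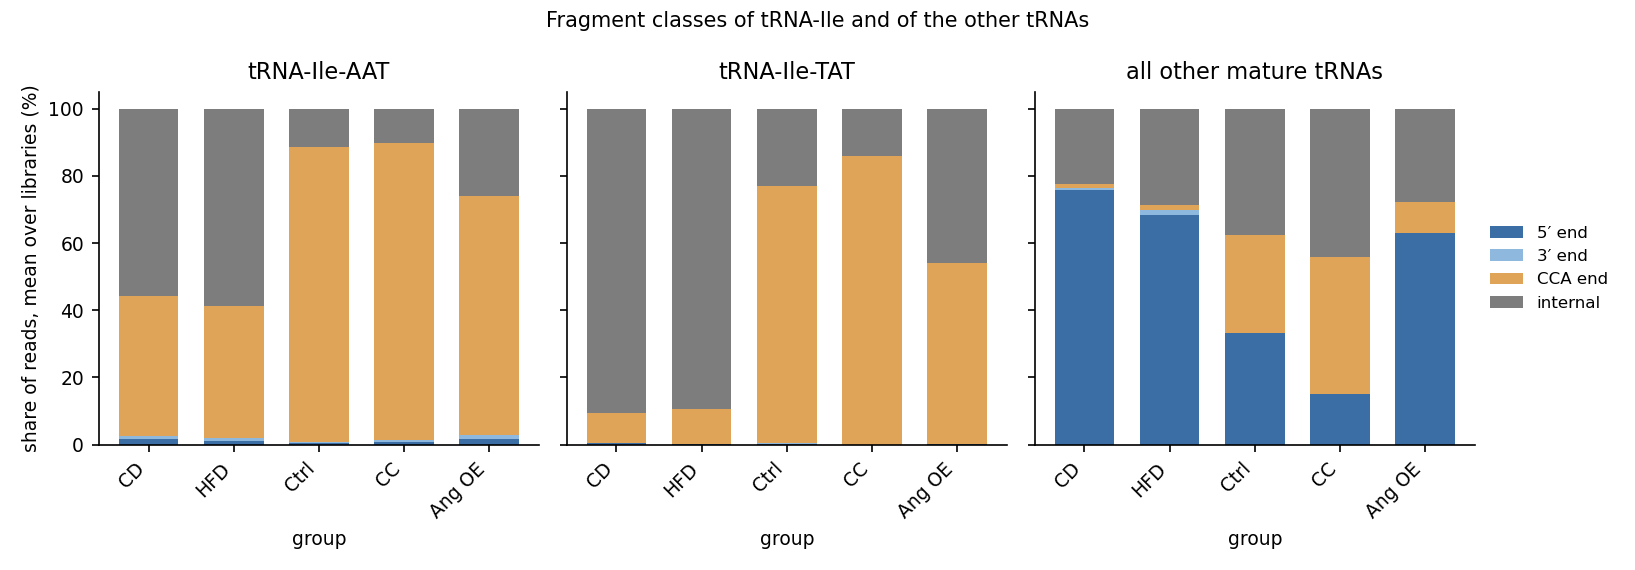
Mean share of the reads in each fragment class (percent of the reads of that tRNA group, stacked to the total) for tRNA-Ile-AAT, tRNA-Ile-TAT and all other mature tRNAs in the 5 groups. The 5′ end class fills most of the bars of the other tRNAs in sperm and Ang OE and is hardly visible for tRNA-Ile, where CCA end and internal fragments make up the bars.

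The reads without a match to the genome separated the isoacceptors. Of the internal reads of tRNA-Ile-TAT, 66.9, 70.1 and 63.4% had no genome match in the CD libraries and 52.1, 71.1 and 71.0% in the HFD libraries. The shares were 23.7 and 20.9% in Ctrl, 22.7 and 18.3% in CC, and 52.9 and 45.5% in Ang OE. For tRNA-Ile-AAT the share was 0.125 to 0.301% in sperm and 1.55 to 5.75% in TM4 cells, below that of tRNA-Ile-TAT in all 12 libraries. All other mature tRNAs together had 2.68 to 5.94% of such internal reads. Ang OE lay above Ctrl and CC, and sperm other than HFD replicate 1 lay above all TM4 libraries.

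These shares stand beside the sequences above, in which the stretch across the splice point of tRNA-Ile-TAT has no exact copy in the genome. The files hold no read positions, so the number of reads that cross that point is not known. Among the 49 internal fragments that averaged at least 100 reads per sperm library, tRNA-Ile-TAT ranked 2 by this share, after tRNA-Ser-GCT with a median of 84.5%. Its own median was 68.5%, and tRNA-Trp-CCA (66.3%) and tRNA-Ser-TGA (57.3%) came next. None of these other isoacceptors is on the list of intron-carrying tRNAs, so a high share was not particular to that list. Of the other isoacceptors listed for an intron in their genes, tRNA-Arg-TCT had 25.5% ± 4.52 (SD, n = 3), tRNA-Leu-CAA 12.0% ± 2.76 and tRNA-Tyr-GTA 2.88% ± 0.932 in CD. In TM4 cells tRNA-Ile-TAT ranked 11 of 50. Of the CCA end reads of tRNA-Ile-TAT, which run to the tail, 4.93 to 9.55% in CD and 20.6 and 21.6% in Ctrl had no match.

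**Figure D3:**
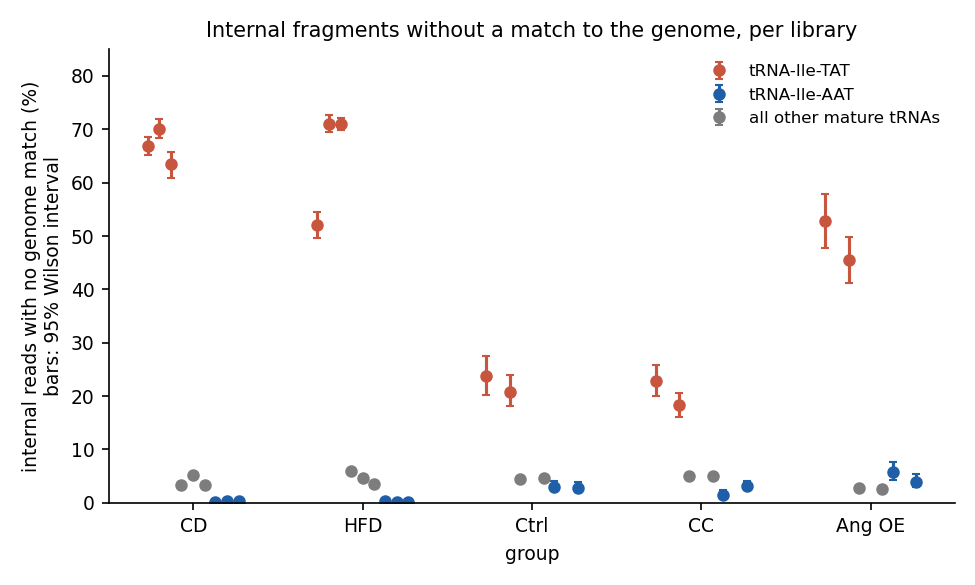
Share of internal reads with no match to the genome (percent) in each library for tRNA-Ile-TAT, tRNA-Ile-AAT and all other mature tRNAs; bars are 95% Wilson intervals and cover counting error only. tRNA-Ile-TAT lies at 52.1 to 71.1% in sperm and at 18.3 to 52.9% in TM4 cells, above the other points in every library.

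Sperm of mice on the HFD was compared with sperm of mice on the CD. The members were selected on results of this contrast, so its values are a description that no test supports. The internal fragment of tRNA-Ile-AAT stood at 89.0, 126 and 71.9 RPM in CD and at 112, 156 and 219 RPM in HFD. The HFD values were the higher ones on average, by a log2 fold change of 0.76 (SE 0.34), while the lowest HFD library lay below the highest CD library. In each of the 3 same-numbered pairs of libraries it was higher in HFD, as was the tRNA-Ile total. The labels give no pairing, and the share of all tRFs with this pattern was not counted, so the pairs lend no support. The internal fragment of tRNA-Ile-TAT stood at 103, 115 and 52.7 RPM in CD and at 56.9, 141 and 228 RPM in HFD, a log2 fold change of 0.66 (SE 0.38). Its lowest HFD value was that of HFD replicate 1, close to the lowest CD value. Without HFD replicate 1 its log2 fold change was 1.04, and without HFD replicate 3 it was 0.14. That of tRNA-Ile-AAT was 0.97 and 0.48 in the same settings.

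The CCA end fragment of tRNA-Ile-AAT stood at 78.1, 86.0 and 49.8 RPM in CD and at 173, 71.6 and 85.2 RPM in HFD. Here HFD replicate 1 was the highest library and the groups overlapped. Its log2 fold change was 0.62 (SE 0.35), and 0.14 without HFD replicate 1. The CCA end fragment of tRNA-Ile-TAT ranged from 6.43 to 10.7 RPM in CD and from 8.55 to 14.4 RPM in HFD, with a log2 fold change of 0.47 (SE 0.31).

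The end fragments without a tail were rare. The 3′ end fragment of tRNA-Ile-AAT stood at 1.77, 1.31 and 1.41 RPM in CD and at 1.90, 2.56 and 2.57 RPM in HFD, and it was the only one of the 6 whose groups did not overlap, which 26.1% of all tested tRFs did with HFD higher. Its log2 fold change was 0.64 (SE 0.35). The 5′ end fragment of tRNA-Ile-AAT ranged from 2.10 to 3.33 RPM in CD and from 3.12 to 3.60 RPM in HFD, with a log2 fold change of 0.23 (SE 0.33). The 5′ end fragment of tRNA-Ile-TAT had 2 to 11 reads per sperm library and its 3′ end fragment 0 to 2 reads, so neither passed the filter of at least 10 reads in at least 3 libraries.

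A tRF was called in sperm when it differed by over 1.5-fold with an unadjusted p below 0.05 in the edgeR quasi-likelihood test. Of the 6 fragments 1 met this rule, as did 15.2% of the 184 tRFs. It was the internal fragment of tRNA-Ile-AAT, for which the family was chosen, so the count restates that choice. It no longer met the rule without CD replicate 1, CD replicate 3, HFD replicate 2 or HFD replicate 3, with TMM scaling, with the size factors of DESeq2 or with all clean reads as the library size. Without CD replicate 2, 3 fragments and 64 of 184 tRFs met it, and without HFD replicate 1, 3 fragments and 35 of 182 tRFs. With p adjusted over all tRFs and held below 0.05, edgeR called 0 of the 184 and DESeq2 0, whereas 28 had an unadjusted p below 0.05 in edgeR. The median log2 fold change was 0.63 over the 6 fragments and 0.44 over all tRFs. With TMM scaling, which moved the median of all tRFs by -0.45, the 5′ end fragment of tRNA-Ile-AAT had a log2 fold change of -0.24 and its internal fragment 0.34. All 28 called tRFs were higher in HFD, against 2 higher and 4 lower with TMM. The miRNAs of a white blood cell list summed to 279 to 333 RPM in CD and 419 to 712 RPM in HFD, without overlap, and those of a red blood cell list to 12630 to 16586 and 13352 to 25341 RPM. The epithelial list summed to 4791, 5090 and 4484 RPM in CD and to 4480, 6060 and 7580 RPM in HFD. The smooth muscle list summed to 26305, 20554 and 16155 RPM in CD and to 15332, 27960 and 29689 RPM in HFD. Both lists, like the internal fragment of tRNA-Ile-TAT, were low in CD replicate 3 and HFD replicate 1 and highest in HFD replicate 3. The germ cell list was lower in HFD on average, with overlap, at 1806, 4956 and 2622 RPM in CD and 2531, 1855 and 1958 RPM in HFD. A mesenchymal list summed to 1331, 1219 and 987 RPM in CD and to 1203, 1393 and 1476 RPM in HFD. The part of all these lists in the values of tRNA-Ile was not tested.

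Related isoacceptors give the setting of these values. Of 7 other isoacceptors listed for inosine at the first anticodon base, 5 of 27 tRFs were called, all higher in HFD, with a median log2 fold change of 0.50. The tRNAs of the other branched-chain amino acids, leucine and valine, had 4 of 31 called, and the intron-carrying tRNAs 3 of 12, again all higher. The largest changes among called tRFs without overlap were 0.75 (SE 0.34) for the internal fragment of tRNA-Arg-ACG, 0.85 (SE 0.33) for that of tRNA-Leu-CAG and 0.78 (SE 0.31) for the 5′ end fragment of tRNA-Tyr-GTA.

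TM4 cells treated with CC were compared with Ctrl cells, which asks whether inhibition of AMPK goes with other tRNA fragments. An Ile-AAT fragment was known from this contrast when the members were chosen, so these values too are a description that no test supports. The CCA end fragment of tRNA-Ile-TAT stood at 33.6 and 43.4 RPM in Ctrl and at 93.2 and 152 RPM in CC. Both CC libraries lay above both Ctrl libraries, with a log2 fold change of 1.67 (SE 0.37), the highest of the 49 CCA end fragments tested. The CCA end fragment of tRNA-Ile-AAT stood at 169 and 206 RPM in Ctrl and at 203 and 294 RPM in CC. Its groups overlapped, and its log2 fold change of 0.40 (SE 0.28) ranked 8 of the 49 CCA end fragments from the lowest.

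The internal fragment of tRNA-Ile-TAT stood at 10.6 and 12.4 RPM in Ctrl and at 15.6 and 23.8 RPM in CC, a log2 fold change of 0.78 (SE 0.28). That of tRNA-Ile-AAT stood at 25.7 and 21.9 RPM in Ctrl and at 25.0 and 30.3 RPM in CC, with overlap and a log2 fold change of 0.22 (SE 0.23). The 5′ end fragment of tRNA-Ile-AAT rested on few reads, 48 and 40 in Ctrl and 70 and 114 in CC. It stood at 0.959 and 0.671 RPM in Ctrl and at 1.35 and 2.39 RPM in CC, a log2 fold change of 1.20 (SE 0.38), whereas the median of the 44 5′ end fragments was -0.42. Its 3′ end fragment stood at 1.08 and 1.04 RPM in Ctrl and at 1.33 and 2.21 RPM in CC, a log2 fold change of 0.74 (SE 0.35).

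In TM4 cells a tRF was called when it differed by over 2-fold with p, adjusted over all tRFs, below 0.05. By this rule edgeR called 0 of the 6 fragments and 0.578% of the 173 tRFs tested, which was 1 tRF. With an unadjusted p below 0.05 and no fold threshold there were 3 of the 6 and 42 of the 173, and DESeq2 called 1 of the 6 and 6 of the 173. These counts describe the members and are not independent of how they were chosen. The 1 call over all tRFs was higher in CC, against 2 higher and 5 lower by DESeq2 with its own size factors. The groups did not overlap for 4 of the 6, with CC higher, against 50.9% of all tRFs. The median log2 fold change was 0.76 over the 6 fragments and 0.40 over all tRFs. All 6 were higher in CC, but with TMM scaling the internal fragment of tRNA-Ile-AAT had a log2 fold change of -0.17 and its CCA end fragment -0.0017. Without CC replicate 1 the rule was met by 3 of the 6 and by 29 of 170 tRFs, with the lone CC library assumed to vary like the other groups. Of the 3 lists of related tRNAs, none had a called tRF among 24, 12 and 27 tested.

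TM4 cells that overexpressed angiogenin were compared with the same Ctrl libraries, which asks what overexpression of the ribonuclease goes with. The methods call the Ctrl cells non-treated and mention no empty plasmid, so angiogenin and the delivery of its plasmid cannot be told apart. The methods adjusted the cell line data for technical batches that they do not name. The family was chosen with results of the series known, including one from these Ctrl libraries, so the members' differences are described without p-values. The CCA end fragments of both isoacceptors were lower in Ang OE. That of tRNA-Ile-AAT stood at 169 and 206 RPM in Ctrl and at 44.8 and 45.8 RPM in Ang OE, 4.15-fold lower. The log2 fold change was -2.05 (SE 0.29), the lowest of the 49 CCA end fragments, whose median was -0.65. That of tRNA-Ile-TAT stood at 33.6 and 43.4 RPM in Ctrl and at 7.08 and 13.5 RPM in Ang OE, 3.74-fold lower. Its log2 fold change was -1.90 (SE 0.38), the third lowest of the class.

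The remaining fragments differed less. The internal fragments stood at 14.7 and 18.6 RPM for tRNA-Ile-AAT and 7.41 and 9.28 RPM for tRNA-Ile-TAT in Ang OE, below both Ctrl libraries, with log2 fold changes of -0.51 (SE 0.23) and -0.46 (SE 0.28). The 3′ end fragment of tRNA-Ile-AAT stood at 0.605 and 0.770 RPM, a log2 fold change of -0.62 (SE 0.37). Its 5′ end fragment stood at 1.13 and 1.17 RPM, above both Ctrl libraries, a log2 fold change of 0.50 (SE 0.39) beside a median of 0.63 for the 5′ end fragments. The 3′ end fragment of tRNA-Ile-TAT had 0 reads in both Ang OE libraries, which allows up to 0.0550 and 0.0605 RPM.

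The rule for TM4 cells was met by 2 of the 6 fragments, the CCA end ones, and by 11.0% of the 173 tRFs in either direction and 6.36% in the lower one. The count of members is not independent of the choice. CCA end fragments made up 8 of the 11 tRFs called lower. By DESeq2 with its own size factors the split of all calls was 22 higher and 15 lower, in place of 8 and 11, and both CCA end fragments of tRNA-Ile still met the rule. The median log2 fold change was -0.57 over the 6 fragments and -0.21 over all tRFs. Of the 7 other isoacceptors listed for inosine, 2 of 24 tRFs were called, both lower, as for the CCA end fragment of tRNA-Leu-AAG (-1.57, SE 0.30, edgeR adjusted p = 0.0244). Of the leucine and valine tRNAs 2 of 27 were called lower, with the CCA end fragment of tRNA-Leu-TAG at -1.58 (SE 0.29, edgeR adjusted p = 0.0244). Of the intron-carrying tRNAs 3 of 12 were called, all higher, and the 5′ end fragment of tRNA-Arg-TCT changed most (2.25, SE 0.57, edgeR adjusted p = 0.0416).

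The mature tRNA reads as a whole moved the other way, from 27578 and 22658 RPM in Ctrl to 36772 and 49568 RPM in Ang OE, so tRNA-Ile differed more as a share of the tRNA reads. The miRNAs of the smooth muscle list summed to 31248 and 29770 RPM in Ctrl and 61711 and 79792 RPM in Ang OE, and those of the germ cell list also lay higher, as given above. Their part in these values was not tested.

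Ang OE was also set directly against CC. The CC libraries took part in the choice of the members, so their differences are described without p-values. All 6 fragments had lower means in Ang OE. The largest difference was that of the CCA end fragment of tRNA-Ile-TAT, from 93.2 and 152 RPM in CC to 7.08 and 13.5 RPM in Ang OE, 11.9-fold lower. Its log2 fold change of -3.57 (SE 0.40) was the lowest of the 49 CCA end fragments. For tRNA-Ile-AAT the CCA end fragment had a log2 fold change of -2.45 (SE 0.30), the second lowest of the class.

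The log2 fold change was -1.24 (SE 0.28) for the internal fragment of tRNA-Ile-TAT and -1.36 (SE 0.36) for the 3′ end fragment of tRNA-Ile-AAT. The internal fragment of tRNA-Ile-AAT had -0.73 (SE 0.23), which did not reach the fold threshold. Its 5′ end fragment had -0.70 (SE 0.38), where the median of the 5′ end fragments was 1.02. The rule for TM4 cells was met by 4 of the 6 fragments, all lower, and by 38.2% of the 173 tRFs in either direction and 28.9% in the lower one. With TMM scaling, which moved the median of all tRFs from -0.57 to -0.016 and the split of all calls from 16 higher and 50 lower to 29 and 24, both CCA end fragments met it and the other 2 did not. The same 2 no longer met it without CC replicate 2 (45 of 170 tRFs) and without Ang OE replicate 1 (37 of 171 tRFs), where the lone library of the group is assumed to vary like the others. As in CC versus Ctrl, these counts are not independent of how the members were chosen. The other isoacceptors listed for inosine had 8 of 24 tRFs called lower and 1 higher, that of the 5′ end of tRNA-Val-AAC (3.62, SE 0.72, edgeR adjusted p = 0.0108). The leucine and valine tRNAs had 7 of 27 called lower and 2 higher, with the 5′ end fragment of tRNA-Val-CAC at 3.79 (SE 0.83, edgeR adjusted p = 0.0117). The intron-carrying tRNAs had 1 of 12 lower and 2 higher, with the 5′ end fragment of tRNA-Arg-TCT at 2.68 (SE 0.58, edgeR adjusted p = 0.0115).

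**Figure D4:**
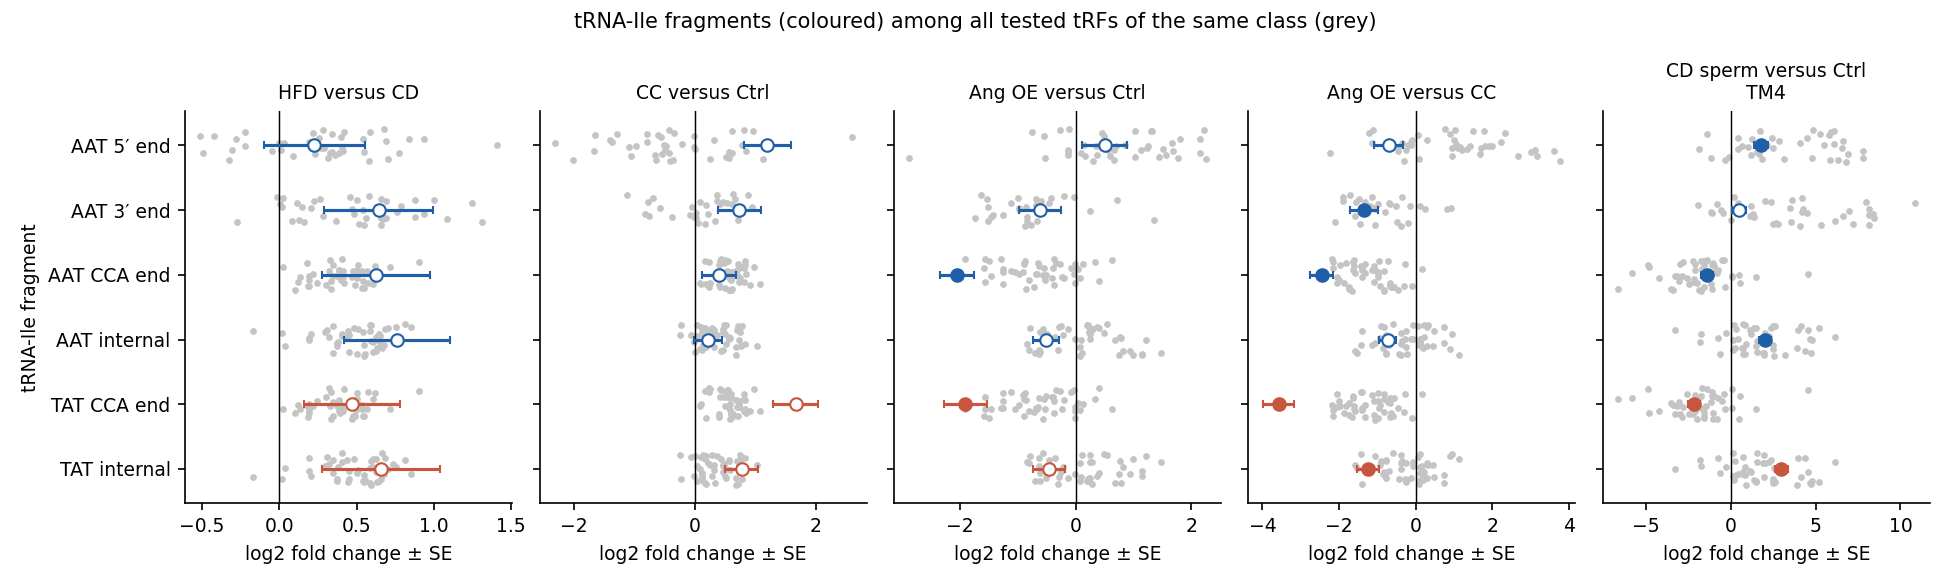
Log2 fold change with its standard error for the 6 tested tRNA-Ile fragments in the 5 comparisons (blue, tRNA-Ile-AAT; red, tRNA-Ile-TAT), with the other tested tRFs of the same class in grey; filled symbols were called, members are drawn open throughout HFD versus CD, and horizontal axes differ between panels. The CCA end fragments of both isoacceptors lie at the low end of their class in Ang OE, and that of tRNA-Ile-TAT lies at the high end of its class in CC.

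Sperm and TM4 cells were compared through CD and Ctrl, as a description of where each fragment is found rather than of a treatment. Tissue and culture, rRNA share and depth all differ between these groups and cannot be told apart. The CD and the Ctrl libraries each took part in a contrast known when the members were chosen, so the members' differences are described without p-values. Internal fragments were higher in CD and CCA end fragments higher in Ctrl. The internal fragment of tRNA-Ile-TAT stood at 52.7 to 115 RPM in CD against 10.6 and 12.4 RPM in Ctrl, 7.82-fold higher, with a log2 fold change of 2.97 (SE 0.39). That of tRNA-Ile-AAT was 4.02-fold higher, with a log2 fold change of 2.01 (SE 0.37). Lower in CD by 4.56-fold was the CCA end fragment of tRNA-Ile-TAT, at -2.19 (SE 0.36), and that of tRNA-Ile-AAT was 2.63-fold lower, at -1.40 (SE 0.33).

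The 5′ end fragment of tRNA-Ile-AAT was higher in CD by 1.79 (SE 0.42), and its 3′ end fragment differed by 0.50 (SE 0.40). The call rule was met by 5 of the 6, 3 higher and 2 lower, and by 78.2% of the 179 tRFs, 52.5% higher and 25.7% lower, a count that is not independent of the choice either. The class medians were 1.56 for internal, -1.73 for CCA end and 2.48 for 5′ end fragments. With TMM scaling, which moved the median of all tRFs from 1.20 to -0.063, the internal fragment of tRNA-Ile-TAT and both CCA end fragments still met it, while the 3′ end fragment of tRNA-Ile-AAT had -0.82. The split of all calls was then 65 higher and 69 lower in place of 94 and 46. The other isoacceptors listed for inosine had 18 of 27 tRFs called higher and 6 lower. The leucine and valine tRNAs had 21 of 30 higher and 8 lower, and the intron-carrying tRNAs had 6 of 12 higher and 5 lower. In these lists the 3′ end fragment of tRNA-Pro-AGG (8.15, SE 0.50, edgeR adjusted p = 1.29e-46), the 5′ end fragment of tRNA-Leu-TAA (7.77, SE 0.49, edgeR adjusted p = 1.14e-44) and the 5′ end fragment of tRNA-Leu-CAA (4.52, SE 0.42, edgeR adjusted p = 3.29e-24) changed most.

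The profiles most like those of tRNA-Ile over the 12 libraries were sought among 126 tRFs of other amino acids with a mean of at least 10 RPM. The measure was the root mean square difference of centred log2(RPM + 1) profiles, which describes likeness only, and all points share the same libraries. For the internal fragment of tRNA-Ile-AAT these were the internal fragments of tRNA-Leu-CAA (0.22), tRNA-Glu-TTC (0.32) and tRNA-Cys-GCA (0.32), against a median of 1.44. For that of tRNA-Ile-TAT they were the internal fragments of tRNA-Leu-CAA (0.42), tRNA-Val-TAC (0.52) and tRNA-Thr-TGT (0.57), against a median of 1.61. The 3′ end fragments had mean levels of 1.55 RPM for tRNA-Ile-AAT and 0.0331 RPM for tRNA-Ile-TAT, so their profiles were nearly flat on this scale. The nearest to them were the internal fragments of tRNA-Gly-ACC, tRNA-Gly-TCC and tRNA-Asp-GTC, and the CCA end fragment of tRNA-Trp-CCA with the internal fragments of tRNA-Lys-CTT and tRNA-Gly-TCC.

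A miRNA entry lies over the tRNA-Ile-TAT gene on chromosome 13, and it is reported here because its reads differ between sperm and TM4 cells; it was singled out after its values were seen. The miR-1983 hairpin of 132 bases in RefSeq (GRCm38.p6) contains the whole tRNA gene, with 18 bases before it and 20 after it. The mature miRNA begins in the last 13 bases of the tRNA and runs 8 bases past them, given in capitals.
miR-1983: cucaccuggagcaUGUUUUCU
According to the methods, reads were matched to tRNAs before miRNAs. This entry held 1 to 9 reads per sperm library, or 0.0369 to 0.325 RPM. In TM4 cells it held 48.2 and 59.4 RPM in Ctrl, 57.0 and 55.9 RPM in CC, and 31.2 and 31.7 RPM in Ang OE. The sperm and TM4 libraries did not overlap, and Ang OE lay below Ctrl and CC. These differences were not tested.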

How the data were processed

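Small RNA of 6 sperm and 6 TM4 libraries was read as deposited. The authors trimmed reads with Trimmomatic 0.40, checked them with FastQC 0.12.0 and annotated reads of a set length range with SPORTS1.1, allowing mismatches, against rRNA, tRNA, miRNA and other databases in turn. The labels name mm10. As deposited, the values are estimated counts for each RNA subclass, not scaled for depth. Subclass values hold decimals, as when reads are divided among several matches, and such division and the mismatches can move reads between near-identical tRNAs.

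Reads with and without a genome match were added, and internal fragments are the isoacceptor's row minus its end rows. Counts were rounded and tested with edgeR 4.0.16 (R 4.3.3; quasi-likelihood, library size clean reads minus rRNA reads, no TMM) over all tRFs that reached 10 reads in 3 or more libraries (sperm, CD against Ctrl) or in 2 or more (TM4). TM4 groups shared 1 fit, and p-values were adjusted by Benjamini-Hochberg over all tRFs of a comparison. SE is the absolute log2 fold change divided by the root of F. A tRF was called at an unadjusted p under 0.05 and over 1.5-fold in sperm, and at an adjusted p under 0.05 and over 2-fold elsewhere. Lists were 7 other isoacceptors known for inosine at the first anticodon base (tRNA-Ile and tRNA-Gly-ACC not included), leucine and valine tRNAs, and other intron-carrying tRNAs. Alternatives used DESeq2 1.42.0, TMM, other library sizes and filters, genome-matched reads, ComBat-seq (sva 3.50.0), the replicate number as a block, and each library left out in turn. The edgeR step was also run on simulated counts with 1 dispersion for all tRFs and libraries, which does not show how it performs on these data.

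The members, lists and tests were chosen with earlier results of these data known. All members are named, and from each list at most 1 called tRF per comparison, with the largest change and no overlap. Same-numbered CD and HFD libraries deviated together from their group means only weakly (r = 0.157, 0.146 and 0.220 over tRFs). The other combinations gave r from -0.167 to 0.0268. By these correlations in the same data, not by a label, the numbers were taken as pairs. Replicates of a group differed by more than counting noise. tRNA genes were sought in GRCm39 by pairing of the cloverleaf arms, keeping 74-base mature sequences with at least 16 Watson-Crick pairs, limits set after 25 hits were seen. All hits on 1 chromosome were also left out, so the gene counts do not cover the whole genome. Gencode vM39 gave the annotation. Python 3.11.15, pandas 2.3.3, numpy 2.4.6, scipy 1.17.1 and matplotlib 3.10.9 were used. Read lengths and positions are not analysed here. The sequence of mature tRNA-Ile-AAT is not reported here.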

Additional observations from a re-analysis of the deposited data

Results flagged for a closer look

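Mitochondrial tRNA-Ile-GAT, which is annotated apart from the cytosolic tRNAs and was not part of the comparisons, drew attention because it lay higher in every HFD library than in every CD library. It stood at 10.6, 11.8 and 11.2 RPM in CD and at 17.1, 12.0 and 14.0 RPM in HFD, with group means of 11.2 ± 0.603 and 14.4 ± 2.59 RPM (SD, n = 3 each). The lowest HFD and the highest CD library were 12.0 and 11.8 RPM. Among the cytosolic tRFs 26.1% had all HFD libraries above all CD libraries. With all clean reads as the library size, a setting chosen after seeing the data, the groups overlapped, at 7.95, 8.80 and 9.34 RPM in CD and 11.5, 8.33 and 10.5 RPM in HFD. The difference was not tested.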

How the results depend on the processing

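Of the log2 fold changes of single tRNA-Ile fragments under the alternatives, 388 kept their direction and side of the threshold, 15 newly passed it, 19 no longer did, and 8 reversed. Of the counts and ratios, 67 held and 23 moved. Where 1 of 2 TM4 libraries was left out, the other was assumed to vary like the remaining groups. In HFD versus CD, 1 tRNA-Ile fragment was called, against 0 by DESeq2 with its own size factors, by TMM and with all clean reads as the library size, and 0 to 3 when 1 library was left out. In CC versus Ctrl 0 were called, against 1 by DESeq2 with either scaling, with the replicate number as a block and with these groups alone, 2 after ComBat-seq, and 0 to 3 when 1 library was left out. In Ang OE versus Ctrl 2 were called in every setting run. In Ang OE versus CC 4 were called, 2 by TMM and DESeq2 with its own size factors, and 2 to 4 when 1 library was left out. In CD versus Ctrl 5 were called, 3 by TMM and DESeq2 with its own size factors, and 5 whichever library was left out. The reversed log2 fold changes, by DESeq2 with its own size factors and by TMM, were those of the 5′ end fragment of tRNA-Ile-AAT in HFD versus CD (-0.20 and -0.24), its internal fragment in CC versus Ctrl (-0.13 and -0.17) and its 3′ end fragment in CD versus Ctrl (-0.66 and -0.82). The last was -1.38 with CCA end reads joined to it, which replaces a rare fragment by an abundant one. The CCA end fragment of tRNA-Ile-AAT in CC versus Ctrl was -0.0017 by TMM. The ratio of summed tRNA-Ile means was 0.313 for Ang OE to Ctrl, 0.196 for Ang OE to CC and 1.02 for CD to Ctrl, but 0.181, 0.123 and 0.191 as a share of mature tRNA reads. Over all tRFs the calls in HFD versus CD were 28, against 9 by DESeq2 with its own size factors, 6 by TMM and 11 with all clean reads. In CC versus Ctrl there was 1 call, against 6 and 7 by DESeq2 and 16 after ComBat-seq. In Ang OE versus Ctrl there were 19, against 31 and 37 by DESeq2, 34 by TMM and 42 after ComBat-seq. The cause of these shifts was not tested.

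With the replicate number as a block, the sperm groups gave 1 tRNA-Ile call and 33 tRFs in HFD versus CD, and the block changed no tRNA-Ile call in sperm. In TM4 cells deviations correlated at 0.652 for Ctrl with CC, -0.191 for Ctrl with Ang OE and -0.0076 for CC with Ang OE. The replicate number thus marked no pairing shared by all TM4 groups. That block gave 1 tRNA-Ile call in CC versus Ctrl (2 tRFs), 2 in Ang OE versus Ctrl (24 tRFs) and 4 in Ang OE versus CC (67 tRFs). A crossed pairing chosen after seeing the data gave 2 tRNA-Ile calls among 34 tRFs in Ang OE versus Ctrl and 4 among 73 in Ang OE versus CC. Depth limits the 5′ and 3′ end fragments of tRNA-Ile-TAT, which had at most 11 reads in a library.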

Other observations

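Reads of tRNA-Ile precursors were few. Precursor tRNA-Ile-AAT had no read in any of the 12 libraries, which allows up to 0.0503 to 0.130 RPM depending on the library. Precursor tRNA-Ile-TAT stood at 1.40 to 1.77 RPM in CD and 1.51 to 2.32 RPM in HFD, and at 1.66 and 1.19 RPM in Ctrl, 0.696 and 0.840 RPM in CC and 1.33 and 1.49 RPM in Ang OE. All tRNA precursors together summed to 3.18 to 5.89 RPM in sperm and 25.2 to 42.1 RPM in TM4 cells.

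In TM4 cells mitochondrial tRNA-Ile-GAT had other fragment classes than the cytosolic tRNAs-Ile. Its 5′ end fragments made up 80.0 and 71.4% of its reads in Ctrl, 66.7 and 57.2% in CC and 89.5 and 91.2% in Ang OE. In sperm they made up 4.30 to 6.77% in CD and 4.61 to 12.0% in HFD, and most reads were internal. The internal share in CD was 88.8% on average, near the 90.7% of cytosolic tRNA-Ile-TAT. In Ang OE the total of tRNA-Ile-GAT was 8.68 and 8.97 RPM, against 14.4 and 8.69 RPM in Ctrl.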
